A study of Mus musculus with 4 samples.

Results

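Lymphocyte and natural killer (NK) cell markers were read in whole mouse liver as 33 listed genes, of which 30 had a probe set named for that gene alone, out of 22180 genes on the array. The members were taken from a list of symbols, and where a symbol had several probe sets, the brightest on average was used. Igj was found under its current symbol Jchain. No probe set was named for Cd247, Lck or Trbc2, which are not analysed here. The measured markers comprised 12 of T cells, 10 of NK and other cytotoxic cells, and 8 of B and plasma cells.

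The liver holds resident NK cells, related innate lymphoid cells, T cells and some B cells among its hepatocytes. T cells recognise antigen through a receptor that signals through the CD3 chains, the kinases Lck and Zap70 and the adaptor Lat. NK cells and cytotoxic T cells kill target cells with perforin and granzymes. B cells signal through surface immunoglobulin held by Cd79a and Cd79b, and plasma cells secrete immunoglobulin.

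The 4 arrays were hybridised with liver RNA of C57Bl6 mice aged 16 weeks, 1 array per group. The groups were liver-specific Myd88 knockout on high-fat diet (LKO-HFD), wild type on high-fat diet (WT-HFD), knockout on control diet (LKO-CT) and wild type on control diet (WT-CT). High-fat food contained 60% fat and control food 9.4%. All mice carried MyD88 lox/lox, and the knockouts also carried ALB Cre, a recombinase under the albumin promoter that is active in hepatocytes. Myd88 encodes an adaptor of Toll-like and interleukin-1 receptors. RNA of 4 to 5 mice, picked for RNA quality, was pooled for each array, so the spread between mice was not measured and no difference between 2 arrays has a replicate or a p-value. Values are log2 expression values made by the authors with robust multi-array averaging (RMA). Myd88 itself had 6.23 on LKO-HFD, 6.44 on WT-HFD, 5.91 on LKO-CT and 6.10 on WT-CT. Whether its probes lie in the deleted part was not analysed here.

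The first question was which markers could be told from background at all. The value table has no detection calls, so the level of genes not expected in liver was used: 1390 genes for olfactory and vomeronasal receptors had a median mean log2 value of 3.09 and a 95th percentile of 3.54. A gene whose mean over the 4 arrays lay above 3.54 is called above background here. By this limit 13 of the 30 measured markers (43.3%) were above background and 17 were not, beside 56.5% of all 22180 genes. Cd22 (3.55) lay just inside and Ncr1 (3.52) just outside. Probe sets differ in affinity, so this limit is approximate and the order of levels among genes is not an order of abundance. Against the 99th percentile of the receptor genes (4.17), Ighm alone remained. The markers above their own array's 95th percentile numbered 9 on LKO-HFD, 10 on WT-HFD, 11 on LKO-CT and 13 on WT-CT.

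**Figure D1:**
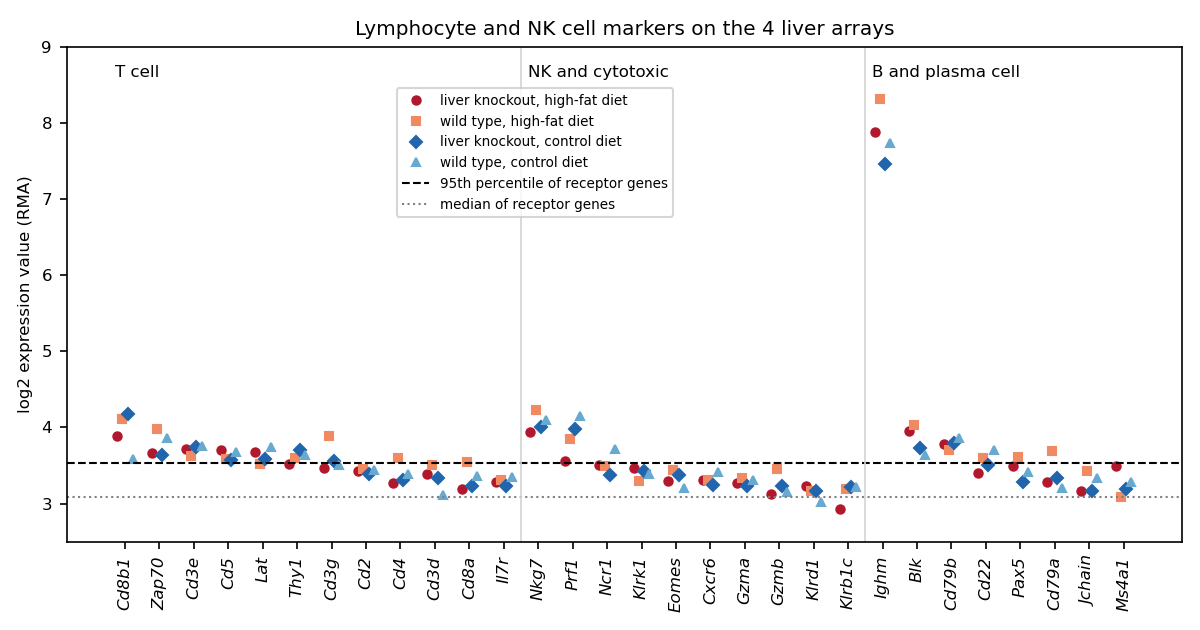
The log2 expression value (vertical axis) of each of the 30 measured markers (horizontal axis), with 1 point per array; the dashed line is the 95th percentile of the receptor genes' means (3.54) and the dotted line their median (3.09). Ighm, between 7.46 and 8.31, stands apart from all other markers, which lie between 2.93 and 4.23.

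Among the T cell markers, 7 of 12 were above background, and none had a mean over 3.94. Cd8b1, the beta chain of the CD8 coreceptor, had 3.89 on LKO-HFD, 4.11 on WT-HFD, 4.18 on LKO-CT and 3.59 on WT-CT. Its value was lowest on WT-CT. Cd8a, the alpha chain with which it pairs, was not above background, with values of 3.19, 3.55, 3.24 and 3.36 on the same arrays. It was highest on WT-HFD, whereas Cd8b1 was highest on LKO-CT. Cd4, the other coreceptor, was also not above background (3.27 on LKO-HFD, 3.60 on WT-HFD, 3.31 on LKO-CT and 3.39 on WT-CT).

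The 3 measured CD3 chains gave little signal. Cd3e had 3.71 on LKO-HFD, 3.63 on WT-HFD, 3.74 on LKO-CT and 3.76 on WT-CT, a range of 0.13. Cd3g had 3.47, 3.89, 3.55 and 3.51 in that order and exceeded its array's limit on WT-HFD only. Cd3d was not above background and had 3.38, 3.51, 3.34 and 3.11. These chains belong to 1 complex, yet Cd3e was lowest on WT-HFD while Cd3g and Cd3d were highest there.

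Downstream of the receptor, the kinase Zap70 had 3.67 on LKO-HFD, 3.97 on WT-HFD, 3.63 on LKO-CT and 3.86 on WT-CT. Both wild-type values were above both knockout values. The adaptor Lat ranged between 3.52 and 3.74, Cd5, an inhibitor of receptor signalling, between 3.58 and 3.70, and Thy1, a surface protein that fibroblasts also make, between 3.52 and 3.70. The adhesion receptor Cd2 (mean 3.43) and the interleukin-7 receptor chain Il7r (mean 3.29) were not above background on any array.

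Of the NK and cytotoxic markers, 2 of 10 were above background. Nkg7, a protein of cytotoxic granules, had 3.94 on LKO-HFD, 4.23 on WT-HFD, 4.01 on LKO-CT and 4.10 on WT-CT. Prf1, which encodes perforin, had 3.55, 3.84, 3.97 and 4.16 in the same order. Perforin was lower on both high-fat arrays than on both control arrays, and on LKO-HFD it lay below that array's limit of 3.60. The granzymes Gzma (mean 3.29) and Gzmb (mean 3.24), which enter target cells through perforin pores, were not above background on any array. The same held for the chemokine receptor Cxcr6, the transcription factor Eomes and the receptors Klrk1, Klrd1 and Klrb1c, whose means lay between 3.14 and 3.39. Ncr1, the NK cell receptor NKp46, had 3.50 on LKO-HFD, 3.49 on WT-HFD, 3.38 on LKO-CT and 3.72 on WT-CT, and exceeded its array's limit on WT-CT alone.

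Of the B and plasma cell markers, 4 of 8 were above background. Ighm, the heavy chain of immunoglobulin M, had 7.89 on LKO-HFD, 8.31 on WT-HFD, 7.46 on LKO-CT and 7.74 on WT-CT, all above the limit. Blk, a kinase of the B cell receptor, had 3.95, 4.03, 3.73 and 3.63, so that both high-fat values were above both control values. Cd79b had 3.78, 3.70, 3.80 and 3.87, and its partner Cd79a was not above background (3.28, 3.69, 3.33 and 3.20), with WT-HFD its single array over the limit. Cd22, an inhibitory receptor, had 3.41, 3.60, 3.51 and 3.70, and exceeded its array's limit on WT-CT alone. Pax5, the transcription factor of B cell identity, Ms4a1, which encodes CD20, and Jchain, the joining chain of secreted immunoglobulin M and A, had means of 3.45, 3.26 and 3.27 and were not above their array's limit on any array. Ighm therefore had a clear signal while Cd79a, Pax5, Ms4a1 and Jchain did not.

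Of other T cell genes 10 of 25 measured were above background, of other NK and innate lymphoid genes 6 of 24, and of other B and plasma cell genes 7 of 19, beside the 56.5% of all genes. Those with strong signal were S1pr1, with 6.93 on LKO-HFD, 7.25 on WT-HFD, 6.94 on LKO-CT and 7.51 on WT-CT, which endothelial cells also express, and Itga1, with 7.98, 7.75, 7.95 and 7.80, which stromal cells also express. A transcription factor of innate-like T cells, Zbtb16, had 7.38, 7.27, 7.65 and 7.81, with both high-fat values below both control values. Which liver cells gave the Zbtb16 signal was not tested, so its diet pattern is not assigned to lymphocytes. Ccl5, a chemokine of T and NK cells chosen after its values were seen, had 5.24, 5.16, 5.27 and 5.13. Tox, a transcription factor of T and innate lymphoid cells, had 4.50, 4.09, 3.85 and 4.31, and was higher on LKO-HFD than on LKO-CT by 0.65. Ccr7, the homing receptor of naive T cells, had 3.77, 4.18, 3.98 and 3.61, and was lower on LKO-HFD than on LKO-CT, with a difference of -0.21, but higher on WT-HFD than on WT-CT by 0.57. Variable segments of the T cell receptor were above background for 2 of 8 genes. Among other leukocyte lists, 15 of 16 pan-leukocyte genes and 17 of 17 macrophage and Kupffer cell genes were above background, while neutrophil and monocyte genes were above it for 3 of 14. Hepatocyte genes, which define the labelled tissue, were above it for 9 of 9. Fewer lymphocytes and less RNA per lymphocyte cannot be told apart in such bulk RNA.

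**Figure D2:**
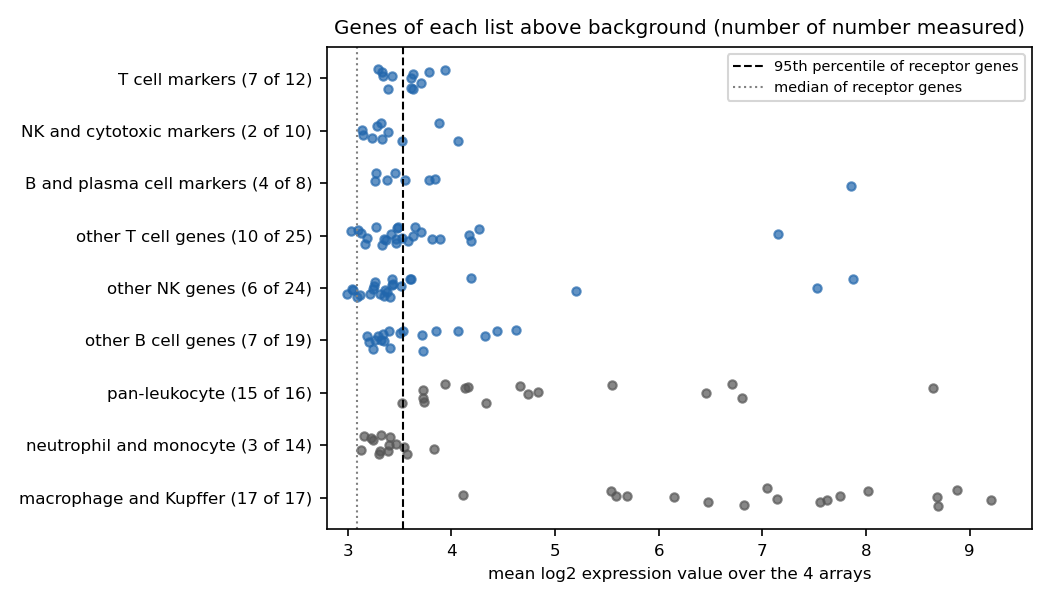
The mean log2 expression value over the 4 arrays (horizontal axis) of every measured gene of 6 lymphocyte lists (blue) and 3 lists of other leukocytes (grey), 1 point per gene, with vertical scatter for visibility only. Most lymphocyte genes lie near or left of the dashed limit (3.54), while all 17 macrophage and Kupffer cell genes lie right of it.

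The next comparisons asked how the markers differed with diet in each genotype and with genotype on each diet. The 13 markers above background were counted at a difference of 1.5-fold or more, beside the 12536 genes above background. With high-fat diet in wild type, 0 markers were higher and 0 lower, where 1.77% of genes were higher and 2.66% lower. In knockout, high-fat diet gave 0 higher and 0 lower (genes, 2.41% and 1.82%). Knockout minus wild type gave 1 higher, Cd8b1, and 0 lower on control diet (genes, 0.933% and 0.909%). On high-fat diet it gave 0 and 0 (genes, 2.22% and 1.04%). The difference between the diet differences, knockout minus wild type, gave 0 positive and 1 negative marker, again Cd8b1 with -0.81 (genes, 5.37% and 3.1%). The Cd8b1 difference of 0.59 on control diet lay at the threshold of 0.58, and after cyclic loess normalisation it no longer reached it. Ighm, with 0.57 for high-fat diet in wild type, lay just under it and passed it after loess or after centring each array on its median. No marker reached 2-fold in any of the 4 differences between arrays.

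Smaller differences were set against those of the receptor genes, a yardstick chosen after the values were seen. The central 95% of the receptor genes' differences reached 0.38 at its upper end for high-fat diet in wild type. Above it lay 6 of the 30 markers, 20.0%, where 3.96% of all genes did: Ighm (0.57), Cd8b1 (0.52), Cd79a (0.49), Cd3d (0.40), Blk (0.40) and Cd3g (0.39). No marker lay below the lower end, where 6.47% of genes did. Cd79a and Cd3d were not above background by their means. Over the 12536 genes above background the central 95% was wider, with its upper end at 0.52. Of the 13 markers above background only Ighm lay above that end, with Cd8b1 just under it. For high-fat diet in knockout, 1 marker lay above the receptor genes' range (Ighm, 0.43, with 5.84% of genes) and 1 below (Prf1, -0.42, with 4.46%). Of the 6 markers above the receptor genes' range in wild type, Cd8b1 differed by -0.29 in knockout, Cd3g by -0.08 and Cd79a by -0.05. Cd3d differed by 0.04 and Blk by 0.22.

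For knockout minus wild type on control diet, 1 marker lay above (Cd8b1, with 2.91% of genes) and 0 below (3.87%). On high-fat diet 1 lay above (Ms4a1, 0.40, with 6.01% of genes) and 3 below, 10.0%, with 2.73% of genes: Ighm (-0.43), Cd3g (-0.42) and Cd79a (-0.41). Over the genes above background the lower end was -0.46, and no marker lay below it. The comparison of genotype on high-fat diet shares the WT-HFD array with that of high-fat diet in wild type, so they are not independent. WT-HFD was the highest of the 4 arrays for 15 of 30 markers (50.0%), against 25.3% of all genes and 33.2% of receptor genes. Of these 15, 5 were above background and the rest were not. Cd3g was above background only through WT-HFD, its mean over the other 3 arrays being 3.51. By the mean over those 3 arrays 12 markers were above background, of which 4 were highest on WT-HFD and 5 on WT-CT. That filter uses WT-CT, so its count of 5 is no support for WT-CT.

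**Figure D3:**
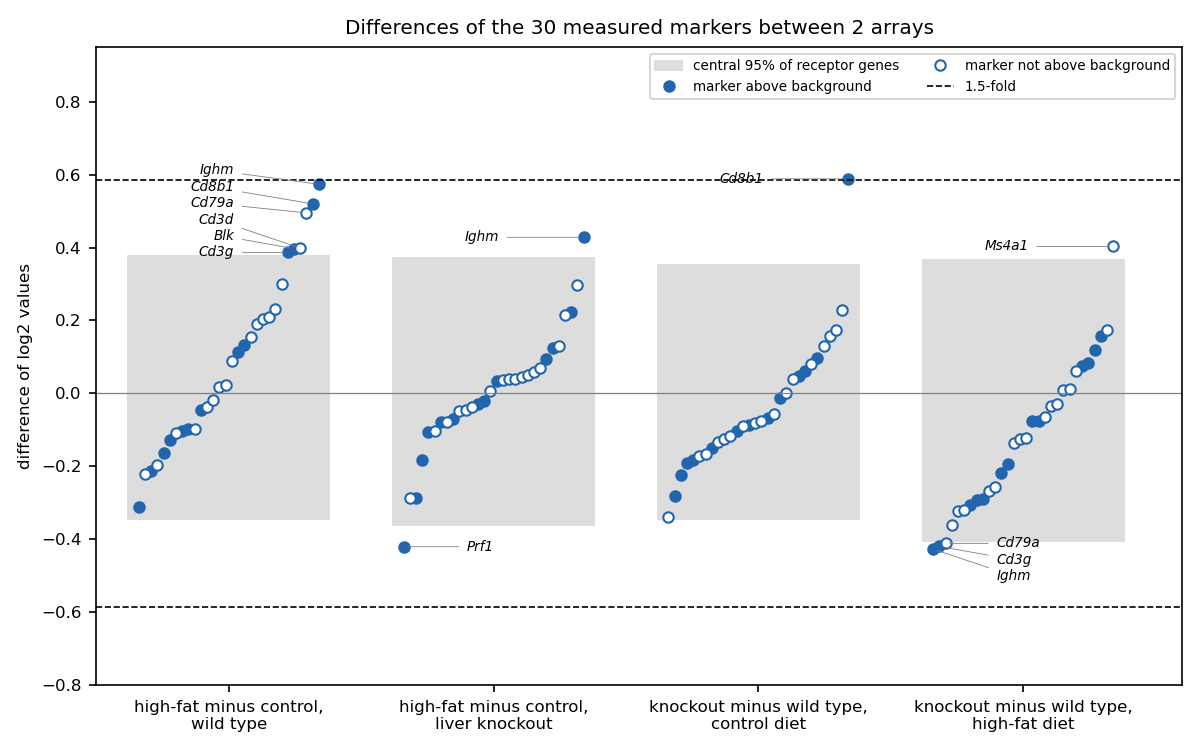
Differences of log2 values between 2 arrays (vertical axis) for the 30 measured markers, sorted within each comparison; filled points were above background, grey boxes span the central 95% of receptor genes and dashed lines mark 1.5-fold. In wild type 6 markers lie above the box for high-fat diet, and Cd8b1 alone reaches 1.5-fold, on control diet.

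Taken as a list, the 13 markers above background had a median difference for high-fat diet of -0.03 in knockout, beside 0.02 over the genes above background, and of -0.05 in wild type, beside -0.03. Knockout minus wild type had a median of -0.19 on high-fat diet, beside 0.03 over those genes, and of -0.09 on control diet, beside -0.02. The -0.19 includes Cd3g, which passed the limit only through WT-HFD, so it is no support for lower values in knockout. With no filter, the 30 measured markers had a median of -0.12 on high-fat diet, beside 0.001 over all genes and -0.01 over receptor genes. Cd22, 1 of the 13, passed the limit only through WT-CT, as its other values of 3.41, 3.60 and 3.51 average under it. That array enters the comparisons of genotype on control diet and of diet in wild type. The medians of the 13 in these comparisons are therefore no support for a difference either. On high-fat diet 9 of the 13 were lower and 4 higher in knockout, where 54.6% of genes above background were higher. Among the 9 were Zap70 (-0.31), Prf1 (-0.29), Nkg7 (-0.29) and Cd3g. As Cd3g passed the limit only through WT-HFD, the count of 9 is no support for lower values in knockout. Over all 30 measured markers 21 were lower and 9 higher there, where 46.8% of receptor genes and 50.2% of all genes were higher. By role, over all measured markers, the median on high-fat diet was -0.10 for T cell markers, -0.10 for NK and cytotoxic markers and -0.16 for B and plasma cell markers. Other T cell genes had a median of 0.02 in this comparison and other NK and innate lymphoid genes 0.08, while other B and plasma cell genes had -0.03. These lists were not tested against each other. The median range over the 4 arrays was 0.29 for the 30 markers, beside 0.24 for receptor genes and 0.26 for all genes. It was 0.30 for the 13 markers above background, beside 0.31 for the genes above background.

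Ighm was the marker with the clearest signal, and its probe sets did not agree. Of 7 probe sets named for Ighm alone, 3 were above background. Probe set 17284360, the brightest, differed with high-fat diet by 0.43 in knockout and by 0.57 in wild type. Probe set 17284349 had 6.13 on LKO-HFD, 7.76 on WT-HFD, 5.85 on LKO-CT and 6.04 on WT-CT. It was thus high on WT-HFD alone, by 1.72 over WT-CT, and knockout minus wild type on high-fat diet was -1.63. Probe set 17284605 had 4.06, 4.74, 4.00 and 4.79, with both knockout values below both wild-type values and a diet difference in wild type of -0.05.

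Several other immunoglobulin probe sets were also highest on WT-HFD. Probe set 17284354, annotated to several genes with Ighm among them, had 4.84 on LKO-HFD, 7.05 on WT-HFD, 4.93 on LKO-CT and 5.26 on WT-CT. Probe set 17284356, also annotated to several, had 5.45, 6.82, 5.19 and 5.32. Igkv5-43, a light chain variable segment (probe set 17459421, the other 2 of this gene not being above background), had 6.79, 7.62, 7.04 and 6.81, highest on WT-HFD. With no filter, WT-HFD was the highest array for 16 of 35 immunoglobulin and associated probe sets. The share was 25.3% for all genes and 33.2% for receptor genes. Of the 11 above background, 6 were highest on WT-HFD and 5 on WT-CT, probe set 17284605 among them. Probe set 17459294, a light chain variable segment and 1 of the 6, was above background only through WT-HFD. Its mean over the other 3 arrays was 3.45, so the count of 6 is no support for that array. Ighv1-53 (probe set 17284577), 1 of the 5, had 3.76 on WT-CT and 3.35, 3.52 and 3.61 on LKO-HFD, WT-HFD and LKO-CT. These 3 values average under the limit, so it was above background only through WT-CT. The count of 5 is therefore no support for WT-CT either. Near-identical segments share sequence, so these probe sets may read the same transcripts and are not independent counts, and their gene names are uncertain. Each array is a pool, so 1 mouse with much immunoglobulin RNA and several with a little cannot be told apart.

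**Figure D4:**
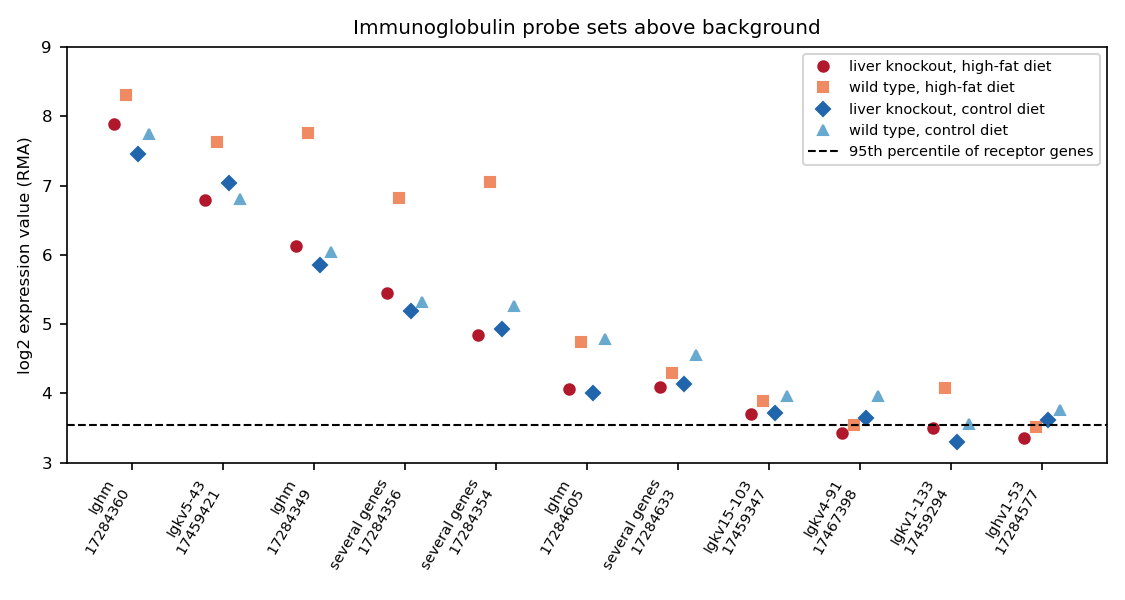
Log2 expression values (vertical axis) of the 11 immunoglobulin probe sets above background, 1 point per array, labelled by gene (or several genes) and probe set number; the dashed line is the background limit. WT-HFD (orange squares) is highest for 6 of them, 1 of which (17459294) passed the limit only through that array. WT-CT is highest for 5, 1 of which (17284577) passed the limit only through WT-CT. WT-HFD is highest by more than 1 log2 unit for probe sets 17284349, 17284356 and 17284354.

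RNA of other tissues also differed between these arrays. Skeletal muscle genes, with 8 of 8 measured and 6 above background, had a summed linear level of 111 on LKO-HFD, 278 on WT-HFD, 123 on LKO-CT and 131 on WT-CT, so they were highest on the same array as Ighm. Exocrine pancreas genes, 12 of 12 above background, had sums of 7239 on LKO-HFD, 3107 on WT-HFD, 3452 on LKO-CT and 643 on WT-CT, highest on LKO-HFD and lowest on WT-CT. Pan-leukocyte genes summed to between 919 and 1004 on the 4 arrays. The part of muscle or pancreas RNA in the marker differences was not tested.

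The partners of the markers in signalling were also read. Some of them, such as Ptprc, also belong to other lists used here. Which liver cells gave their signal was not tested, so their values are not assigned to lymphocytes. Among genes of T cell receptor signalling, 13 of 17 measured were above background, beside 56.5% of all genes. Nfatc1, a transcription factor activated by calcium, had 4.66 on LKO-HFD and 5.25 on WT-HFD, a difference of -0.59, and the kinase Prkcq had 4.31 on LKO-HFD and 3.65 on WT-HFD, a difference of 0.67. Ptprc, which encodes CD45, had 5.85 on LKO-HFD, 5.44 on WT-HFD, 5.32 on LKO-CT and 5.59 on WT-CT, and was not highest where Ighm was. Of 9 measured genes of B cell receptor signalling, 8 were above background, beside the same 56.5% of all genes. The adaptor Pik3ap1 had 8.61 on LKO-HFD, against 9.20 on LKO-CT, a difference of -0.59.

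Of 20 measured ligands and cytokines that act on lymphocytes, 12 were above background, beside 56.5% of all genes. On high-fat diet 15 of the 20 were higher and 5 lower in knockout than in wild type, with a median of 0.09. Of all genes, 50.2% were higher, with a median of 0.001. The 12 above background were all higher, with a median of 0.16. Of the genes above background, 54.6% were higher, with a median of 0.03. Whether any of the 12 passed the limit only through LKO-HFD was not checked. Cxcl9, a ligand of the T cell chemokine receptor Cxcr3, had 8.03 on LKO-HFD, 7.23 on WT-HFD, 7.28 on LKO-CT and 7.31 on WT-CT, and Il18, a cytokine that activates NK cells, had 7.30, 6.76, 6.74 and 7.10. Both were highest on LKO-HFD. Cxcl11, another Cxcr3 ligand, had 5.44, 5.09, 5.18 and 4.16, and was lowest on WT-CT. Cxcl13, the B cell attracting chemokine, had 6.93, 6.63, 7.55 and 7.83, so both high-fat values were below both control values. Cxcl16, the ligand of Cxcr6, had 6.20, 6.14, 6.11 and 6.49, while the receptor was not above background.

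A fit over all 4 arrays took its error from the departure from additive effects of diet and genotype. In limma with Benjamini-Hochberg adjustment, 0 of the 13 markers and 0 of 12536 genes (0%) passed for diet, and 0 of 13 and 0 genes (0%) passed for genotype. At an unadjusted p under 0.05 there were 2 markers and 1194 genes (9.52%) for diet, and 1 marker and 524 genes (4.18%) for genotype. Ighm, read here by probe set 17284360 alone, had a diet effect of 0.50 (SE 0.13, limma adjusted p = 0.369), positive in both genotypes. Its genotype effect was -0.35 (SE 0.13, limma adjusted p = 0.973), negative on both diets. The other Ighm probe sets, which differed as given above, were not fitted. Prf1 had a diet effect of -0.37 (SE 0.12, limma adjusted p = 0.464), negative in both genotypes. After cyclic loess, limma called 61 genes for diet and 3 for genotype, 0 of them markers. The fit has 1 residual degree of freedom, and a miss of the threshold does not show that a marker was equal between groups.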

How the data were processed

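Liver RNA of 4 pooled groups was labelled with biotin and hybridised to Affymetrix arrays. The submitters' processing notes name RMA and Affymetrix Expression Console as the source of the log2 values the authors deposited; software versions and the library of probe sets are not stated in the sources used here. RMA subtracts background and equalises the arrays' distributions, and differences of dim probe sets are understated on its scale. The number of arrays limits the precision. Of 41345 probe sets, 23521 had 1 gene symbol in the platform annotation, 1814 several and 16010 none; only the first were named, giving 22180 genes. No coordinates were used.

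Groups came from the sample titles. Differences were subtractions of log2 values. Limma 3.58.1 in R 4.3.3 (lmFit with additive genotype and diet, eBayes, Benjamini-Hochberg at 0.05) was run on the 12536 genes above background and tested on simulated data. Python 3.11.15, pandas 2.3.3, NumPy 2.4.6 and matplotlib 3.10.9 did the rest. Alternatives were the probe set rule, cyclic loess, median centring, the background limit and the fold threshold. Every marker is accounted for; values on all arrays were to be given for markers above background at 1.5-fold and the highest of each role, and of each other list up to 4 genes with the largest absolute difference in a comparison, any that passed limma, and Myd88. Values of further markers, of immunoglobulin probe sets and of Ccl5, and the receptor genes' central 95%, were chosen after values were seen. The members and lists were chosen with earlier results of these data known.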

Additional observations from a re-analysis of the deposited data

Results flagged for a closer look

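Cd8b1 went opposite ways with genotype on the 2 diets. Knockout minus wild type was -0.22 on high-fat diet and 0.59 on control diet. Each difference rests on 1 array per group, and the difference between them was not tested.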

How the results depend on the processing

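After cyclic loess, Ighm made 1 marker higher for high-fat diet in wild type, and 0 were higher in knockout on control diet, where Cd8b1 had 0.58. After centring each array on its median, 2 were higher for high-fat diet in wild type, Ighm (0.65) and Cd8b1 (0.59). At 2-fold, 0 were higher in knockout on control diet and 0 negative in the difference of diet differences. With the 99th percentile of receptor genes as limit, 1 marker, Ighm, was above background, so the median differences for diet were its own, 0.43 in knockout and 0.57 in wild type, and the 2 counts that held Cd8b1 became 0. The number above background was 19 with the 90th percentile, 14 with the 40th percentile of all genes, and between 12 and 14 with each array left out, a setting chosen after seeing the data (as were the receptor range, Ighm's probe sets and the counts of highest arrays). Of markers outside the receptor genes' range, 0 were above it for diet in knockout with all probe sets averaged, and 1 was below it for genotype on control diet after loess; the 6 above it for diet in wild type were 6 under loess, centring and averaging. Limma after loess called 61 genes for diet (37 higher, 24 lower) and 3 for genotype (3 higher), 0 of them markers, while without the filter or with a mean-dependent prior it called 0; the cause was not tested. All 130 differences of single markers above background moved by less than the SD over genes under loess or averaging; Ighm's other probe sets moved them further, as given above. No paired analysis was possible because each group has 1 array. The dim signal of 17 markers limits every statement on them.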
